A study of Homo sapiens with 5 samples.

Results

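Peaks of a p53 antibody that were present both in camptothecin-treated HCT116 cells with p53 and in cells without p53 were examined. They were selected on 1 criterion, namely that a peak of the p53-CPT list on chromosomes 1 to 22 and X had at least 1 bp in common with a peak of the p53-KO list. Of 9013 p53-CPT peaks on these chromosomes, 5481 (60.8%) met it and are called shared peaks. The other 3532 p53-CPT peaks are called p53-CPT-only, and 2214 of the 7695 p53-KO peaks were p53-KO-only. The shared share of 60.8% is the result of the selection and is given as a description. The authors' paper reports a far smaller number of p53-binding peaks for camptothecin-treated cells. The share therefore holds for the deposited list and not for the published set. p53-CPT is a ChIP with a p53 antibody from p53-WT cells treated with 1.5 μM of camptothecin (CPT), a drug that traps topoisomerase I on DNA, over 4 h. p53-KO is a ChIP with the same antibody target from p53-KO cells that had received DMSO. HCT116 is a human colon cancer cell line. The authors' paper describes AAV-mediated recombination as the origin of the ATF3-KO cells, and states that the p53-KO cells were obtained from Bert Vogelstein. The labels do not give the number of clones. The series also holds ATF3 ChIPs from ATF3-WT cells with DMSO (ATF3-Ctrl), from ATF3-WT cells with 1.5 μM of CPT (ATF3-CPT) and from ATF3-KO cells with DMSO (ATF3-KO). Cells of every condition were fixed with DSG (1 mM) and then formaldehyde (1%), and there was 1 library per condition. The p53-CPT and p53-KO libraries differ in genotype and in drug, which cannot be told apart here.

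p53 is a transcription factor that binds a 20-base element made of a pair of palindromic decamers, and DNA damage stabilises it. A ChIP in cells that lack the target is a control for signal that does not depend on it. Tandem repeats are stretches in which a short unit is copied head to tail. They make up the telomeres at chromosome ends, much of the satellite DNA around centromeres, and the microsatellites scattered between and within genes.

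Sequences of some of the strongest shared peaks are shown first, because their letters carry the main feature of the set. All are read from the GRCh37 plus strand, and the capitals mark the longest perfect run of the unit named, so that a longer run of another unit can stand in lower case.
ACAGAG unit, chr11:11268238-11268357: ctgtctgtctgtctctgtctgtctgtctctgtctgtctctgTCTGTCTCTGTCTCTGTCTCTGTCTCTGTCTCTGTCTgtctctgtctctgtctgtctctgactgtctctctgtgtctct
GA unit, chr7:157254278-157254357: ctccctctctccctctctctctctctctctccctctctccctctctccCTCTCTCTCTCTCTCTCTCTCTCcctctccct
GA unit at the PAXBP1 promoter, chr21:34144141-34144290: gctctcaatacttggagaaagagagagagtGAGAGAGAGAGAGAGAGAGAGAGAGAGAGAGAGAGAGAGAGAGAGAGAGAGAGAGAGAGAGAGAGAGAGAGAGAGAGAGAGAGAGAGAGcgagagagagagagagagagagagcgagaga
CA unit, chr3:128891498-128891617: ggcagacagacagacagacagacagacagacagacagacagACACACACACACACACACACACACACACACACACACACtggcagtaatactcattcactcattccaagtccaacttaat
CA unit at the YJU2 promoter, chr19:4247563-4247712: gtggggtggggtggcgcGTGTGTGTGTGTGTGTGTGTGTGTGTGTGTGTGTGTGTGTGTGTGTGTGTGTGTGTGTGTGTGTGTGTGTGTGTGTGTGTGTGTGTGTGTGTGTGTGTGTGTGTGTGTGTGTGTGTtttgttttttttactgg
AATGG unit, chr10:42599769-42599888: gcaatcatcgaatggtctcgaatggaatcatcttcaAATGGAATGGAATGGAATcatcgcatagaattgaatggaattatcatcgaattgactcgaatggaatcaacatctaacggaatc
The first 2 stretches come from peaks with scores of 508 and 377, where the score is the value, based on tags and not scaled by depth, by which findPeaks ranked its peaks. A shared peak without any run is shown next, which lies beside a large assembly gap of chromosome 1.
Beside the gap, chr1:121485063-121485232: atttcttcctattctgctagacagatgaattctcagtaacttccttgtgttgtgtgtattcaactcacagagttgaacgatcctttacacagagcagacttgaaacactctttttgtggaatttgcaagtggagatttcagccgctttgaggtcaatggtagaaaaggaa
For contrast, the p53 element of the strongest p53-CPT-only peak at CDKN1A, the p53 target gene of the p21 cell cycle inhibitor, had 2 mismatches to the consensus.
CDKN1A element, chr6:36644226-36644245: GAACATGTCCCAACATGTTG

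Nearly all shared peaks lay on tandem repeats. A perfect run of at least 16 bases with a unit of 1 to 6 bases was found in 5160 of the 5481 shared peaks (94.1%, 95% Wilson interval 93.5 to 94.7). It was found in 1519 of 3532 p53-CPT-only peaks (43.0%, 41.4 to 44.6), a difference of 51.1 percentage points (Newcombe interval 49.4 to 52.9). The p53-KO-only peaks were close to the shared ones, with 92.5% (91.4 to 93.6). Windows of the same width placed 1000 bp to the side of the shared peaks held such a run in 9.94%. All intervals here cover counting error only, and peaks are not replicates of a condition. Tandem repeats were examined after the sequences of the peaks had been seen.

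The repeats were mostly dinucleotides. Runs of GA (read as CT on the other strand) were present in 2196 shared peaks (40.1%), against 8.95% of p53-CPT-only peaks, 20.3% of p53-KO-only peaks and 0.347% of the side windows. Runs of CA (or GT) were present in 2774 shared peaks (50.6%), against 27.6%, 68.8% and 1.11% in the same order. Of all windows of 318 bp along chromosomes 1 to 22 and X, 0.296% held a GA run and 1.00% a CA run. The next most frequent units were AT in 240 shared peaks, ACAGAG in 180, AAAG in 165, AGGG in 113 and AGAGG in 112. AGAGG runs were in 2.04% of shared and 0.17% of p53-CPT-only peaks. Runs of A alone were an exception, at 1.44% of shared peaks, 2.94% of p53-CPT-only peaks and 3.01% of the side windows.

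Each peak was then put in 1 of 5 classes. GA runs without a CA run marked 1756 shared peaks (32.04%), CA runs without a GA run 2334 (42.6%), both kinds 440 (8.03%), only another unit 630 (11.5%) and no run 321 (5.86%). In the p53-CPT-only peaks the class without a run was the most frequent, with 2013 peaks (57.0%). Among all p53-CPT peaks of a class, 89.0% (87.5 to 90.3) of GA peaks were shared, 81.8% (78.3 to 84.8) of peaks with both units, 72.7% (71.1 to 74.2) of CA peaks, 66.0% (62.9 to 68.9) of peaks with another unit and 13.8% (12.4 to 15.2) of peaks with no run. The intervals of GA peaks and CA peaks did not overlap, but they leave out differences between libraries and in peak strength. With scores of 7 to 9, 63.3% of GA peaks and 59.3% of CA peaks were shared. With scores of 10 to 14 it was 88.7% and 82.4%. The p53-KO-only peaks had more CA peaks (61.8%) and fewer GA peaks (13.3%) than the shared set.

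**Figure D1:**
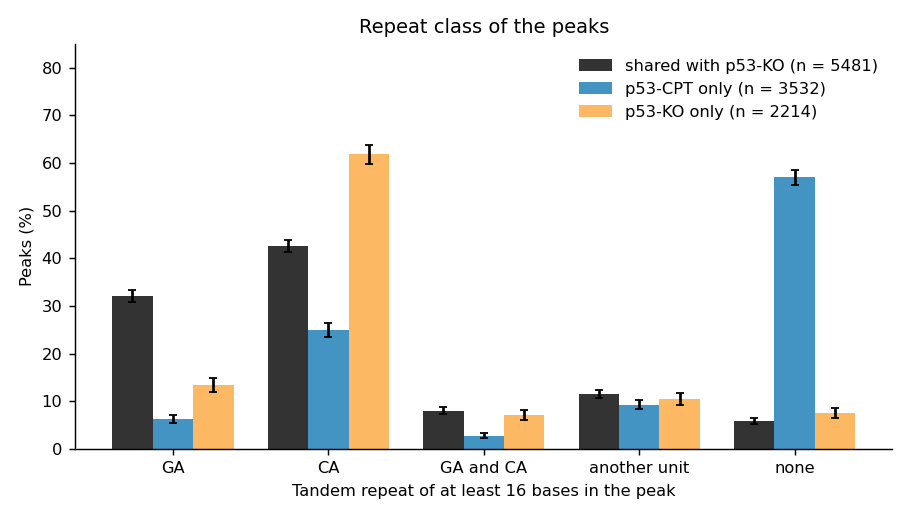
Share of peaks (%) in each class of perfect tandem repeat of at least 16 bases, for 5481 shared, 3532 p53-CPT-only and 2214 p53-KO-only peaks, with 95% Wilson intervals as error bars. Of the shared peaks, 32.04% fell in the GA class and 5.86% in the class with no run, where 57.0% of p53-CPT-only peaks fell.

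Most of the longest GA repeats of the genome were among the shared peaks. Of the 707 perfect GA runs of at least 48 bases in the assembly, 638 (90.2%, 87.8 to 92.2) had their middle inside a shared peak, and 671 lay in some p53-KO peak. The share was 46.2% for the 1056 runs of 40 to 47 bases, 18.0% for 32 to 39 bases, 9.60% for 24 to 31 bases and 5.53% for the 20212 runs of 16 to 23 bases. CA runs showed a steep step instead. Of 4159 CA runs of at least 48 bases, 38.2% lay in a shared peak, against 3.32% of the 12065 runs of 40 to 47 bases and between 1.72% and 1.93% of the shorter ones. Of other units, only AT, A, AAAG, CG and the telomere unit were counted over the genome. AT, AAAG and A runs of equal length were rarely in a shared peak. AT runs of at least 48 bases were inside 1 in 0.705% of 2128 cases, AAAG runs of that length in 1.47% of 4637 cases, and A runs in 0 of 482 cases. Runs of the telomere unit AACCCT of at least 48 bases numbered 39, of which 43.6% lay in a shared peak.

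**Figure D2:**
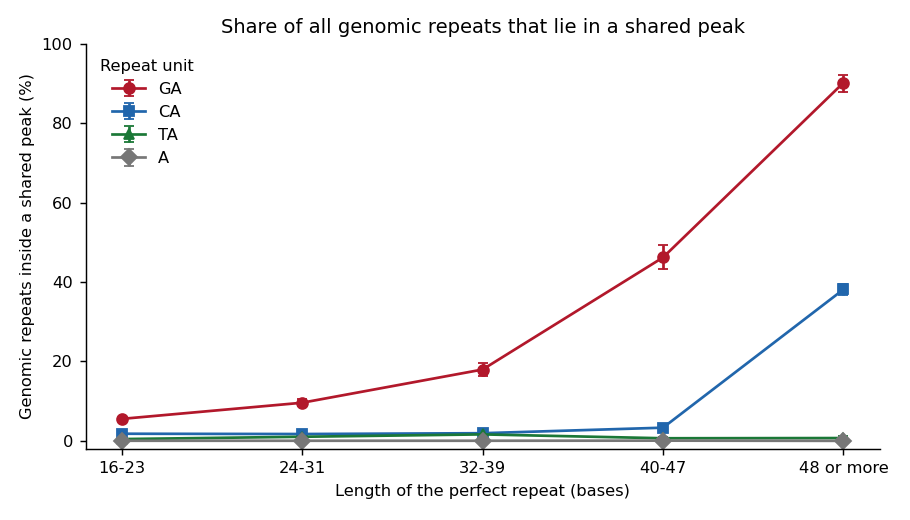
Share of all perfect GA, CA, TA and A repeats on chromosomes 1 to 22 and X whose middle lies in a shared peak (%), by repeat length in bases, with 95% Wilson intervals. The GA share runs from 5.53% at 16 to 23 bases to 90.2% at 48 or more, and the CA share is 3.32% at 40 to 47 bases and 38.2% above.

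The repeats sat at the peak centres. In the 2334 shared CA peaks the middle of the longest CA run lay a median of 0.5 bp from the peak centre, with quartiles at -5 and 5.5 bp, and within 20 bp of it in 91.3%. In the 1756 shared GA peaks the quartiles were -7 and 7.13 bp, and 84.9% lay within 20 bp. The peaks of both libraries also had nearly the same position, with a median of 3 bp between the p53-CPT and p53-KO centres and 5207 of the 5481 pairs within 50 bp.

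**Figure D3:**
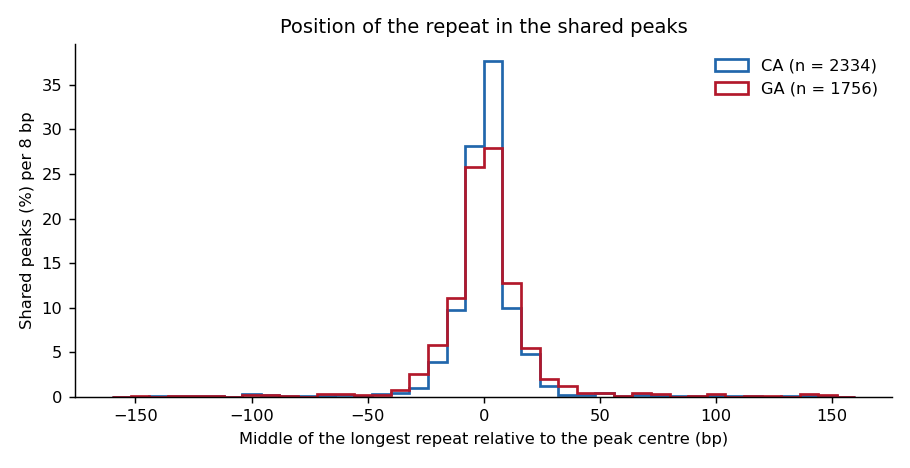
Distance in bp from the peak centre to the middle of the longest GA run (1756 peaks) or CA run (2334 peaks), as percent of shared peaks per bin of 8 bp. Both distributions peak at the centre, with 84.9% of GA and 91.3% of CA runs within 20 bp.

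The selection had little room at its edge. The overlap of a shared peak with its p53-KO peak had a median of 311 bp, and in 140 shared peaks it covered under 50% of the p53-CPT peak. Each shared peak met a single p53-KO peak. The smallest overlaps were 23 bp at chr2:242765508-242765826 (score 49) and 24 bp at chr4:174103784-174104102 (score 10). The nearest p53-CPT-only peaks were 5 bp away from a p53-KO peak at chr6:44149843-44150161 (score 10) and 9 bp away at chr21:44756848-44757166 (score 11). In all, 7 p53-CPT-only peaks had a p53-KO peak within 100 bp, and their median distance to one was 123750 bp.

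The values in both p53 libraries describe how the set was selected and are given without a test. The normalized tag count, which is the number of tags per 10000000 tags of the library, had a median of 47.3 in p53-CPT (quartiles 31.5 and 82.0) and of 75.6 in p53-KO (50.4 and 125.9) over the shared peaks. The p53-CPT value was a median of 0.665 times the p53-KO value, with quartiles of 0.509 and 0.854. It was higher than the p53-KO value in 785 of 5481 shared peaks (14.3%), more than 2 times as high in 19 and under 0.5 times in 1274. This scale divides by the tags of each library, 3169743 in p53-CPT and 1984941 in p53-KO, of which 7.20% and 9.01% lay in peaks, so a general shift between the libraries is part of each ratio. The median ratio was similar over the classes, at 0.670 in GA, 0.626 in CA, 0.663 in peaks with both, 0.689 with another unit and 0.732 with no run. The ratio was also much alike in shared peaks with a p53 element (0.684, 255 peaks) and without one (0.664).

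**Figure D4:**
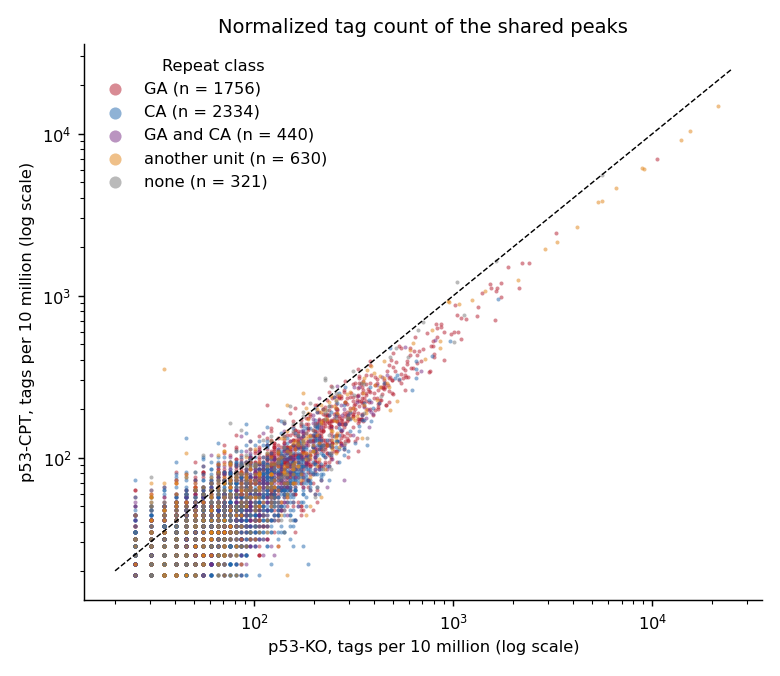
Normalized tag count (tags per 10000000, log axes) of each of the 5481 shared peaks in p53-KO (horizontal) and p53-CPT (vertical), colored by repeat class. Points under the dashed line of equal values were higher in p53-KO, and 785 peaks lie above it.

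GA repeats held the stronger shared peaks and CA repeats the weaker ones. The median score was 17 in the GA class (quartiles 12 and 28) and 11 in the CA class (8 and 14), and the median normalized tag counts were 66.3 and 41.0 in p53-CPT and 100.8 and 65.5 in p53-KO. With scores of 7 to 9, 60.8% of shared peaks were CA and 15.3% GA. With scores of 25 to 49 the shares were 14.6% and 58.9%. Peaks of other units made up 36.5% of the 52 shared peaks with a score of at least 100, where CA was down to 1.92%. GA runs of at least 48 bases had a median score of 22, against 15 to 16 for each shorter length, while CA peaks had medians of 10 to 12 at every length. The share of p53-CPT peaks that were shared depended on the score as well, from 43.7% at scores of 7 to 9 to 76.0% at 15 to 24 and 59.1% at 100 or more. GA peaks with a score of 15 to 24 were shared in 97.0% of cases, CA peaks of that score in 88.4%, and peaks without a run in 20.5%.

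The focus ratio, the fraction of tags found on the side of the centre that their strand predicts, had a median of 0.929 in shared peaks (quartiles 0.878 and 0.952) and of 0.857 in p53-CPT-only peaks (0.778 and 0.900). Within the shared peaks it followed the class, with 0.944 in GA, 0.926 in CA, 0.889 with another unit and 0.800 with no run. By score the median went from 0.900 at 7 to 9 to 0.967 at 25 to 49, and it was 0.931 at 50 to 99 and 0.722 in the 52 peaks with at least 100. The Clonal Fold Change is the fold by which distinct tag positions fall under those expected, and peaks above 2 were removed before deposit. In shared peaks its median was 1.20 (quartiles 0.99 and 1.42), against 0.95 (0.87 and 1.01) in p53-CPT-only peaks. It was 1.27 in CA, 1.22 in GA, 1.05 with another unit and 0.99 with no run among shared peaks, and 1.11, 0.99, 0.91 and 0.90 in p53-CPT-only peaks of these classes. The p53 lists lost more candidates to this filter than the ATF3 lists, 509 of 10946 in p53-CPT and 582 of 9574 in p53-KO, against 14 to 31 in each ATF3 list. The removed candidates were not analysed here. The 5 highest values in the shared set were each 1.99, including GA runs in introns of SBF2, IL1RAPL2 and PGM5 and a peak with no run in the promoter of MTRNR2L1 on chromosome 17.

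The lowest Clonal Fold Changes belonged to the strongest peaks. The telomere-unit peak at chr5:10919-11237 had 0.51 and a score of 624. It reached 14881 (exact Poisson interval 14460 to 15312) normalized tags in p53-CPT and 21386 (20747 to 22039) in p53-KO. The same region was listed in ATF3-Ctrl at 53.3, in ATF3-CPT at 38.8 and in ATF3-KO at 71.8, on the same scale of each library. Of the 10 shared peaks with the highest scores, 6 were such telomere-unit peaks, whose centres lay 159 to 1077 bases from the first or last sequenced base of chromosomes 1 (both ends), 4, 5, 12 and X. The remaining ones were the ACAGAG repeat at chr11:11268098-11268416 (score 508, 6047.8 in p53-CPT and 9118.7 in p53-KO), the GA repeat at chr7:157254039-157254357 (score 377, 7025.8 and 10590), and 2 peaks with no run. These were chr1:121484988-121485306, 288 bp from a large gap, and chr7:61969062-61969380, 914890 bp from one. Both had nearly equal values in the p53 libraries, 5549.3 and 5612.3 for the former and 1634.2 and 1647.4 for the latter, and both were far higher in the ATF3 lists than the telomere peaks. The chromosome 1 peak stood at 4300.4 in ATF3-Ctrl, 2129.1 in ATF3-CPT and 4720.6 in ATF3-KO.

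Chromosome ends and centromeres held few of the shared peaks in number. Within 1 Mb of a chromosome end there were 107 shared peaks (1.95%, 1.62 to 2.35), against 2.52% of p53-CPT-only peaks, a difference of -0.568 percentage points (-1.23 to 0.0486). This territory makes up 1.57% of the sequenced bases. Within 1 Mb of 1 of the 24 assembly gaps of at least 2.5 Mb, which stand for centromeres, heterochromatin and the short arms of acrocentric chromosomes, there were 117 shared peaks (2.13%, 1.78 to 2.55) and 2.10% of p53-CPT-only peaks, where 1.41% of sequenced bases lie. The difference was 0.0395 points (-0.593 to 0.634). The strongest peaks differed from the rest in this. Of the 52 shared peaks with a score of at least 100, 13 were near an end and 7 near a gap, whereas of the 1440 with scores of 7 to 9 it was 1.53% and 1.11%. Near an end the share stayed between 1.29% and 2.07% in every band of scores under 50. Among peaks with no run the shared ones were near a gap more often, 49 of 321 (15.3%) against 51 of 2013 (2.53%), a difference of 12.7 points (9.12 to 17.1).

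The telomere unit occurred in 28 shared peaks, 3 p53-CPT-only peaks and 0 side windows, and 23 of the 28 lay within 1 Mb of an end. The AATGG unit, known from pericentromeric satellites, occurred in 35 shared peaks (0.639%), 24 of them near a large gap, and in 0.481% of p53-CPT-only peaks and 0.383% of side windows. By chromosome, the density of shared peaks lay between 1.51 per sequenced Mb on chromosome 4 and 2.65 on chromosome 19. Chromosome X had the highest shared share, with 346 of its 452 p53-CPT peaks (76.5%, 72.4 to 80.2), and the autosomes lay between 52.6% on chromosome 17 and 69.3% on chromosome 18.

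Shared peaks were less often in promoters, defined as positions up to 2 kb from a protein-coding TSS in either direction. The share was 190 of 5481 (3.47%, 3.01 to 3.98) against 309 of 3532 p53-CPT-only peaks (8.75%, 7.86 to 9.73), a difference of -5.28 points (-6.36 to -4.25), and 2.55% of the sequenced bases are in promoters. The p53-KO-only peaks were similar to the shared ones at 3.66% (2.95 to 4.52). Within classes, the difference was -4.16 points (-7.14 to -0.349) for peaks with no run and -3.95 points (-7.08 to -1.55) for peaks with another unit. It was 1.41 points (-1.66 to 3.05) for GA, -0.546 points (-2.09 to 0.719) for CA and 1.71 points (-4.08 to 4.86) for peaks with both, whose intervals held 0. A further 1.66% of shared peaks were in exons, 42.9% in introns and 52.0% between genes, against 2.32%, 38.5% and 50.4% of p53-CPT-only peaks.

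The strongest promoter peaks were again repeats. The first by score lay 1061 bp upstream of COL6A1, a collagen gene, with an ACAGAG run and 476.4 (403 to 559) in p53-CPT against 861.5 (737 to 1001) in p53-KO. PAXBP1 had a GA run of 89 bases 154 bp upstream of its TSS, with 590.0 (508 to 681) and 740.6 (626 to 870). NGB, the neuroglobin gene, had a GA run of 59 bases with 583.6 (503 to 674) and 977.4 (845 to 1125). In these 3 promoters the p53-KO value was the higher one. GOLM2, CYP2A6, TLR6, NR2F1 and STX6 also had GA-class peaks, and YJU2 had a CA run of 116 bases. The order of the 2 libraries was the same in every one of them, and over all shared peaks only 14.3% were higher in p53-CPT. At PAXBP1, GOLM2, CYP2A6 and TLR6 the intervals of the 2 libraries overlapped.

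The base composition of shared peaks was close to that of the other peaks. Their GC content had a median of 44.8% (quartiles 40.4 and 49.5), against 46.4% in p53-CPT-only peaks and 41.7% in the side windows. The class medians ran from 43.6% in CA to 47.96% with no run. The highest GC content was 87.5% at chr2:33141192-33141510, which lies in LINC00486 and has a run of 81 C or G bases. The next was 81.5% at chr21:9825816-9826134 on MIR3648, with 179.8 in p53-CPT and 176.3 in p53-KO. The lowest were 19.7% and 20.7% in a pair of peaks on chromosome 8 near POTEA that had no run of a unit of up to 6 bases. Low complexity in the sense of few distinct 6-base words (under 0.5 of those possible in 300 bp) was seen in 659 shared peaks (12.02%, 11.2 to 12.9) and in 5.10% (4.42 to 5.87) of p53-CPT-only peaks, a difference of 6.93 points (5.79 to 8.04). The class with no run was not free of repetitive sequence. Its shared peaks had a median of 0.746 distinct words (quartiles 0.315 and 0.919), and 154 of the 321 were under 0.7. In p53-CPT-only peaks with no run the median was 0.922 (0.892 and 0.942).

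The p53 element was rare in shared peaks. A match with at most 3 mismatches to the 20-base p53 consensus on either strand was present in 255 shared peaks (4.65%, 4.13 to 5.24) and in 1583 p53-CPT-only peaks (44.8%, 43.2 to 46.5). In the side windows of the shared peaks it was present in 7.08%, and in 5.24% of p53-KO-only peaks. With at most 2 mismatches the shares were 0.493% and 32.4%, and 0.785% in the side windows. Among peaks with no run the contrast was 2.80% of 321 shared against 67.5% of 2013 p53-CPT-only peaks, a difference of -64.7 points (-67.1 to -61.5).

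Among 38 known p53 target genes, 34 had a p53-CPT peak between 20 kb upstream and the gene end, and 45 such peaks were found in all. Of these peaks 3 (6.67%) were shared, against the 60.8% of all p53-CPT peaks. TP53I3, an oxidoreductase gene activated by p53, had as its single p53-CPT peak a shared one at chr2:24307100-24307418, with an AGGGC run of 19 bases and 37.9 (19.6 to 66.1) in p53-CPT against 70.5 (38.6 to 118) in p53-KO. TIGAR, a regulator of glycolysis, had a shared peak on a CA run of 49 bases in its intron, with 44.2 and 65.5, and 2 p53-CPT-only peaks. ATF3 had 3 p53-CPT-only peaks, the highest with a score of 89, and 1 shared peak at chr1:212788363-212788681 in an exon. The last held no run and stood at 28.4 (13.0 to 53.9) in p53-CPT, 55.4 (27.7 to 99.2) in p53-KO, 14.7 in ATF3-Ctrl and 7.8 in ATF3-CPT, and it was not listed in ATF3-KO. The intervals of the p53 libraries overlapped for all 3 shared peaks, with 24.1 to 74.1 in p53-CPT and 34.9 to 112 in p53-KO for TIGAR.

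The ratio of p53-CPT to p53-KO ran from 0.119 to 10.0 over the shared peaks. The largest excess in p53-CPT was at chr12:16089671-16089989, in an intron of DERA, with 353.3 (291 to 425) against 35.3 (14.2 to 72.7) in p53-KO, or 10.0-fold, and scores of 90 and 6. This peak held a run of 49 bases with a 5-base unit. Its best p53 element had 4 mismatches. The second largest was 2.92-fold at chr12:50564158-50564476, 3001 bp upstream of CERS5, a ceramide synthase gene, with 132.5 (95.5 to 179) and 45.3 (20.7 to 86.1), a CA run of 41 bases and a p53 element of 3 mismatches. At the other end, chr2:226520477-226520795 in an intron of NYAP2 stood at 22.1 (8.88 to 45.5) in p53-CPT and 186.4 (131 to 257) in p53-KO, and held a p53 element of 1 mismatch beside its CA run of 43 bases. The 5 lowest ratios were 0.119 to 0.182 and belonged to 4 CA peaks and 1 with an AACAC unit.

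Shared peaks formed 5336 loci when those within 10 kb were joined, and 261 of them lay in a locus with another. The largest group was the 5S rRNA gene cluster at chr1:228745891-228781988 with 9 shared peaks, each on a 5S gene or pseudogene. Their normalized tag counts ran from 94.6 to 173.5 (median 135.7) in p53-CPT and from 120.9 to 226.7 (median 146.1) in p53-KO, so that the ranges overlapped. ATF3-CPT had peaks at 4 of them, and ATF3-Ctrl and ATF3-KO at 0. Groups of 8 and 7 shared peaks lay in NBPF20, a member of a family of copied genes, and consisted of GA and CA peaks only. A group of 4 at chr11:51579464-51591244 held no runs, and all 4 were listed in each of the ATF3 lists. Peaks in copied genes share reads with near-identical copies and are uncertain in position.

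Shared peaks met the ATF3-antibody lists less often than p53-CPT-only peaks where cells had ATF3. Of all 9013 p53-CPT peaks, 6.36% overlapped an ATF3-Ctrl peak, 10.0% an ATF3-CPT peak and 2.71% an ATF3-KO peak. The shared peaks gave 192 (3.50%, 3.05 to 4.02), 246 (4.49%, 3.97 to 5.07) and 139 (2.54%, 2.15 to 2.99), and the p53-CPT-only peaks 10.8%, 18.6% and 2.97%. The differences were -7.28 points (-8.44 to -6.17), -14.1 points (-15.6 to -12.8) and -0.437 points (-1.16 to 0.245), of which the last interval holds 0. As a share of the ATF3 lists, the shared peaks met 0.578% of ATF3-Ctrl, 0.354% of ATF3-CPT and 6.63% of ATF3-KO peaks. These lists differ greatly in size, with 33571, 70128 and 2098 peaks on the chromosomes used, and these percentages depend on it. The 3 ATF3 lists share no library, but all 3 lack an input control and have 12820520 to 15457013 tags each. The p53-CPT and p53-KO lists lack an input control as well.

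The overlap with ATF3 lists differed between the repeat classes. The GA, CA and combined classes held 3, 4 and 0 of the 139 shared peaks on the ATF3-KO list, and 27, 46 and 5 of the 246 on the ATF3-CPT list. Of shared peaks with no run, 29.3% (24.6 to 34.5) overlapped ATF3-Ctrl, 34.3% (29.3 to 39.6) ATF3-CPT and 23.99% (19.6 to 28.9) ATF3-KO. Among the 154 of these with under 0.7 of distinct words, 27, 29 and 26 did so, and among the other 167, 67, 81 and 51. With another unit the shares were 9.21%, 9.21% and 8.73%. In the GA class they were 0.740%, 1.54% and 0.171%, and in the CA class 1.11%, 1.97% and 0.171%. In the class with both units 0 of 440 met an ATF3-KO peak, which allows a share of up to 0.682% at 3 counts (Wilson upper limit 0.866%). The ATF3 lists themselves held few such repeats, since 0.935% to 1.00% of their peaks had a GA or CA run in the 318 bp around the centre, against 82.6% in p53-KO and 63.5% in p53-CPT. Within peaks with no run, shared ones exceeded p53-CPT-only ones in ATF3-KO overlap by 19.6 points (15.1 to 24.6), in ATF3-Ctrl by 12.7 points (7.69 to 18.1) and in ATF3-CPT by 5.65 points (0.284 to 11.3). Within GA peaks the difference was -0.636 points (-3.245 to 0.411) for ATF3-Ctrl and -0.756 (-3.76 to 0.725) for ATF3-CPT. Within CA peaks it was 0.0889 (-0.888 to 0.795) and -0.763 (-2.15 to 0.338), so that these GA and CA intervals held 0. With another unit it was -1.56 (-5.90 to 2.29) and -6.18 (-10.95 to -1.86).

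**Figure D5:**
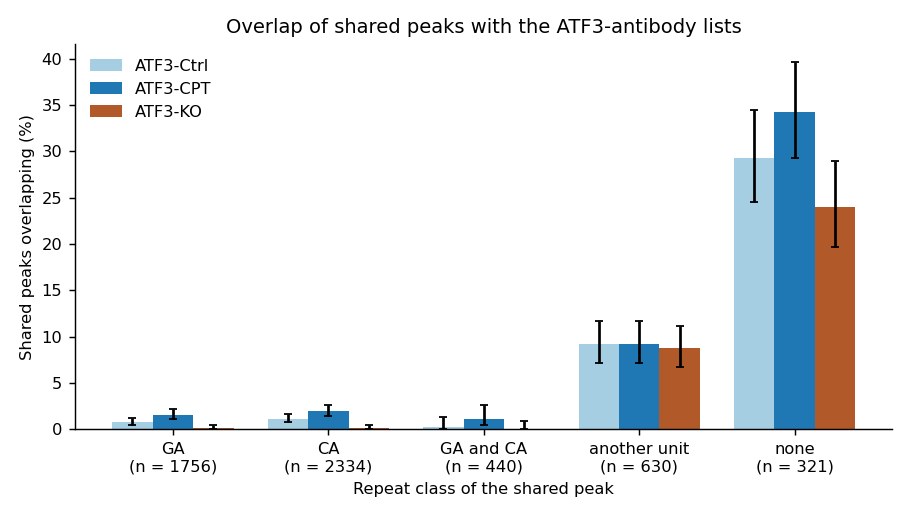
Share of shared peaks (%) in each repeat class that overlap a peak of ATF3-Ctrl, ATF3-CPT or ATF3-KO by at least 1 bp, with 95% Wilson intervals. The class with no run has 23.99% to 34.3% in the 3 lists, and the GA and CA classes at most 1.97%.

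Of the 139 shared peaks on the ATF3-KO list, 106 were on all 3 ATF3 lists, 59 lay near a large gap and 24 near a chromosome end. Their median Clonal Fold Change was 0.99 and their median ratio of p53-CPT to p53-KO 0.818. A different group of 135 shared peaks was on the ATF3-CPT list and not on the ATF3-KO list, with 12 near a large gap. The exact core TGACTCA, the AP-1 site that ATF3 is known to bind with JUN partners, was found on either strand in 22 of these 135 (16.3%, 11.02 to 23.4), in 3 of the 139 (2.16%, 0.737 to 6.15) and in 3.70% (3.22 to 4.25) of shared peaks on no ATF3 list. The side windows held it in 5.18% of cases and the p53-CPT-only peaks in 8.27%. The ATF/CRE core TGACGTCA, the other ATF3 site named in the authors' paper, was in 0 of the 135 and 0 of the 139 (Wilson upper limits 2.77% and 2.69%). It was in 5 of the 5481 shared peaks (0.0912%), 0.311% of p53-CPT-only peaks and 0.0730% of side windows.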

How the data were processed

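The p53-CPT and p53-KO peak lists and the 3 ATF3 lists were used, with 1 library per condition. The authors aligned reads to hg19 with BWA 0.6.1 and called peaks per library with HOMER 4.1 (tools and versions per the submitters' processing notes), with thresholds of 0.001 for the false discovery rate, 4-fold and p-value 1e-04 over the surrounding 10000 bp, and a Clonal Fold Change of at most 2. The normalized tag counts deposited are a signal per 10000000 library tags, 1 tag being worth 3.15 in p53-CPT and 5.04 in p53-KO. The authors' score is the peak caller's own value, which is not scaled by depth and can exceed the tags behind the normalized count. The deposited focus ratio is a fraction, and the deposited Clonal Fold Change and Fold Change vs Local are ratios. The authors' deposited local p-value was not used. Peaks with a score under 7 in p53-CPT or 6 in p53-KO were not in the lists.

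Overlaps, distances and runs were computed with Python and pandas on the GRCh37 assembly, in which no peak passed a chromosome end, with GENCODE release 44 lifted to GRCh37. The p53 element was searched with up to 3 mismatches. No test was run: shares carry 95% Wilson intervals, differences Newcombe intervals and tag counts exact Poisson intervals, which cover counting error only. Members and lists were chosen with earlier results of these data known. Regions were named by rank of score, Clonal Fold Change, GC content, ratio and locus size, in promoters by score and at 38 p53 target genes, and not every such region is given. Repeat classes, the AP-1 and ATF/CRE cores and the runs of the whole genome were chosen after the data had been seen. The scripts were tested on simulated data. HOMER's own repeat annotation was not used here, and 198 p53-CPT peaks on other sequences were left out. The sequences of some peaks are not reported here.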

Additional observations from a re-analysis of the deposited data

How the results depend on the processing

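No paired analysis was possible because each condition had 1 library, and for the same reason no library could be left out. Of 37 alternatives to 13 results, 14 stayed within the counting interval of the value given and 23 did not. The shared share was 59.3% with at least 50% of the peak covered, 58.1% with scores of at least 10 in both lists and 61.9% when peaks within 10 kb were counted as 1 locus. The share near a large gap was 6.91% within 5 Mb and 1.71% by locus, both below the 7.90% and 1.98% of p53-CPT-only peaks, so the order of the groups is not settled. The share near an end was 9.94% within 5 Mb. The promoter share was 2.08% within 1 kb and 9.40% with genes of every type, and p53-CPT-only peaks remained above it (6.63% and 15.9%). The GC median was 43.1% over 1000 bp, low complexity 30.4% under 0.7 of distinct words, and the p53 element share 0.493% with at most 2 mismatches. With scores of at least 10, the focus ratio median was 0.939 and the Clonal Fold Change median 1.23. Requiring 50% of the p53-CPT peak to be covered left an overlap of 0.0182% with ATF3-Ctrl and with ATF3-CPT, whose peak sizes of 126 and 124 bp are under that length, and 1.86% with ATF3-KO. With ATF3 scores of at least 20 the overlaps were 2.13%, 2.43% and 1.70%, the last now above the 1.42% of p53-CPT-only peaks. The tandem repeat share, with alternatives added after the data had been seen, was 97.1% for runs of at least 12 bases, 84.0% for 24 bases, 91.8% within 100 bp around the centre and 94.9% without peaks within 1 Mb of a large gap, and p53-CPT-only peaks were at 59.3%, 35.2%, 36.8% and 43.3%. The order of shared and p53-CPT-only peaks changed in 5 of 33 alternatives. The 50% cover in ATF3-Ctrl and in ATF3-CPT accounts for 2 of them and says nothing on the order, since peaks of that size can hardly meet it. The others are those for gaps and the ATF3-KO score, whose cause was not tested. Depth limits both lists, and a p53-CPT-only peak may lie under the score of 6 that p53-KO required.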
